A study of Homo sapiens with 8 samples.

Results

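Transcripts of 10 genes of the NF-kB system were followed by RNA-seq in H1975 and HCC44, established human cell lines from lung cancers. The genes were taken by symbol from the 61228 genes listed for each library. They are the 5 NF-kB subunits (NFKB1, NFKB2, RELA, REL and RELB), 2 inhibitors (NFKBIA and NFKBIE) and 3 targets whose products act back on the pathway (TNFAIP3, BIRC3 and TRAF1). All 10 passed the filter on low counts, as did 21307 genes in all.

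Both lines are labelled WT and were grown in RPMI-1640 with serum. Each line received the solvent DMSO or ACBI1, and RNA was taken after 96 hours. ACBI1 is a degrader that brings SMARCA2, SMARCA4 and PBRM1, bromodomain proteins of the SWI/SNF chromatin remodellers, to the VHL ubiquitin ligase. The labels give its concentration as 1 mM, well beyond the range in which such compounds are normally used, and the unit may not be right. The 4 groups, H1975 with DMSO, H1975 with ACBI1, HCC44 with DMSO and HCC44 with ACBI1, held 2 libraries each, 8 in all. Each line stands for 1 tumour. The labels do not say that replicates were separate cultures, so the p-values measure only the spread between these libraries, which may be technical.

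Each library held between 62467286 and 70455517 reads counted in genes. Every library correlated more with its own replicate (at least 0.996 for log2 CPM) than with the other group of its line (at most 0.984). Of 6 epithelial markers none was at 0 in all libraries. Their summed level is given in CPM, read counts scaled to library size. It was 5137 to 5393 CPM in H1975 with DMSO and 2331 to 2808 CPM with ACBI1. HCC44 had 940 to 980 CPM under DMSO and 1199 to 1658 CPM under ACBI1. Among the HCC44 means KRT7 moved most, from 441 CPM with DMSO to 936 CPM with ACBI1. There KRT18, EPCAM and CDH1 were also higher with ACBI1, by far less. KRT8 (217 to 151 CPM) and KRT19 (40.1 to 37.5 CPM) were lower. Of the 4 lung lineage markers, NKX2-1 averaged 25.9 CPM in DMSO-treated H1975 cells but 0.016 CPM in HCC44, which all but lacked it. NAPSA, SFTPB and SFTPC were low or absent in H1975 with DMSO too, at 1.93, 0.172 and 0 CPM. The leukocyte marker PTPRC averaged at most 0.0377 CPM in any group, while CD3E and the fibroblast marker DCN had no counts. The 5 leukocyte markers summed to between 12.02 and 19.3 CPM in the H1975 libraries, mostly CSF1R (15.2 CPM with DMSO and 12.3 CPM with ACBI1, group means), and to between 1.65 and 3.88 CPM in HCC44, mostly CD14 (3.38 and 1.05 CPM). The 3 endothelial markers summed to at most 4.01 CPM in any library. The 4 fibroblast markers lay between 25.0 and 69.7 CPM, summed, in the H1975 libraries, between 74.2 and 92.5 CPM in HCC44 with DMSO and between 207 and 411 CPM in HCC44 with ACBI1, nearly all from COL1A1. The part of these shifts in the results that follow was not tested.

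NF-kB factors are dimers of subunits that share a Rel homology domain. In the canonical arm, IkB proteins such as those made from NFKBIA and NFKBIE hold RELA- and REL-containing dimers in the cytoplasm until the IKK complex marks the inhibitor for destruction. In the non-canonical arm, the kinase NIK, made from MAP3K14, drives processing of the NFKB2 precursor to p52, which pairs with RELB. Several subunit, inhibitor and ubiquitin-ligase genes are themselves NF-kB targets, so the transcripts followed here are both parts and outputs of the system.

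The promoters of the genes on which the results turn are shown because NF-kB binds a defined class of sequence, the kB consensus. RefSeq held the 250 bases before the start of 8 of the 10 genes, in 14 windows, on GRCh38.p14. RELB and NFKBIE were not among them. The starts meant here and in the next paragraph are those of RefSeq. For BIRC3, NFKB2 and TNFAIP3 they lie inside the gene positions given further on, which are from GENCODE. By those positions the NFKB2 window shown and both TNFAIP3 matches fall within the gene. The end of the BIRC3 window also falls within its gene, but its matches do not. Capitals mark each match to the kB consensus on either strand, and overlapping matches form 1 run. Each sequence is written 5' to 3' on the strand of its gene.
BIRC3, chr11:102317234-102317483, plus strand: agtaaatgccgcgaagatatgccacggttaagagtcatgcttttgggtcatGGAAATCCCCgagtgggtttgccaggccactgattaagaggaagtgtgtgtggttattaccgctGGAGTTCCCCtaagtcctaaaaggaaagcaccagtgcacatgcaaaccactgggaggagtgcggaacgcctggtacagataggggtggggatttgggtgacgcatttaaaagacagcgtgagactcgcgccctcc
NFKB2, second window, chr10:102394328-102394577, plus strand: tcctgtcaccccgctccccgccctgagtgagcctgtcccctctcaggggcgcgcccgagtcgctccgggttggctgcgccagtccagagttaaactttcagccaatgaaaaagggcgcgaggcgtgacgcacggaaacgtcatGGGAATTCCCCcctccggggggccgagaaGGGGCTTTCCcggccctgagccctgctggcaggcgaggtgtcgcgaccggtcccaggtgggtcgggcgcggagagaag
NFKBIA, chr14:35404750-35404999, minus strand: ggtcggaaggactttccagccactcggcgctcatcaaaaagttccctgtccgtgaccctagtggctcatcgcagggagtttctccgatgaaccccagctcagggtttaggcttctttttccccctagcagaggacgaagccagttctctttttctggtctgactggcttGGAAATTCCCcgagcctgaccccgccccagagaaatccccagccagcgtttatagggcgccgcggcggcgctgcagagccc
TNFAIP3, chr6:137867009-137867258, plus strand: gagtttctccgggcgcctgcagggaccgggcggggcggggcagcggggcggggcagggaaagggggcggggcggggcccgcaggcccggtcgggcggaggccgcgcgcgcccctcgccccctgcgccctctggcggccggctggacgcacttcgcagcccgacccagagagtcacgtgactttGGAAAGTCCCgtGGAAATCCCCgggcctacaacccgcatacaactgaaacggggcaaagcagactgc

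BIRC3 held 2 matches, GGAAATCCCC beginning 199 bases before the start and GGAGTTCCCC beginning 135 bases before it. TNFAIP3 held GGAAAGTCCC and GGAAATCCCC, beginning 67 and 55 bases before its start, and the second has the same letters as the first match of BIRC3. NFKBIA held GGAAATTCCC at 81 bases. In the NFKB2 window GGGAATTCCC at 107 bases overlapped GGAATTCCCC at 106, and GGGGCTTTCC lay at 78. Across the 14 windows, 7 held the consensus (50%), from 6 genes, BIRC3, TNFAIP3, NFKBIA, NFKB1, NFKB2 and REL. Of 35116 RefSeq promoter windows of the same length, 3498 held it (9.96%). No match was found in the 2 windows of RELA or the 3 of TRAF1. The NFKB2 window shown, the second of 3, held the most matches of that gene's windows. The first NFKB2 window held none, and the third held GGGGCTTCCC at 176 bases and GGGACTTTCC at 21. A match describes letters and does not show binding. In H1975 the genes with a match included 1 that rose with ACBI1 (BIRC3), 2 that fell (NFKBIA and TNFAIP3) and 3 that did not pass the test (NFKB1, NFKB2 and REL). In HCC44, 5 of these 6 genes rose, none fell and TNFAIP3 did not pass. Over all tested genes 14.6% rose and 16.7% fell in H1975, and 17.5% and 17.4% in HCC44. The genes were chosen as parts and targets of the pathway, and RELB, which rose in both lines, had no window. These counts therefore do not tie a match to a response, and such a link was not tested.

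In H1975, ACBI1 was accompanied by higher BIRC3 (3.15-fold) and RELB (1.66-fold) and by lower TNFAIP3 (2.58-fold), NFKBIA (1.52-fold) and TRAF1 (1.42-fold). Of the 10 genes, 5 passed the test (edgeR quasi-likelihood test, Benjamini-Hochberg adjusted p under 0.05), against 31.3% of all tested genes. The 2 that rose stand beside 14.6% of tested genes, and the 3 that fell beside 16.7%. With library totals in place of TMM factors, 5 rose and 1 fell. The median log2 fold change of the 10 was 0.09, against -0.01 over all tested genes. In bulk libraries, fewer cells that express a gene and less of its RNA per cell cannot be told apart.

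In HCC44, BIRC3 rose 7.04-fold, NFKB2 1.79-fold, RELB 1.78-fold, NFKB1 1.38-fold, NFKBIA 1.38-fold and REL 1.30-fold with ACBI1. These 6 of 10 compare with 34.9% of tested genes called in either direction and 17.5% called as risen. None of the 10 fell past the test, against 17.4% of tested genes. The median of the 10 was 0.42 on the log2 scale, against 0.01 over all tested genes. BIRC3 and RELB were the 2 genes that rose in both lines, beside 12.9% of tested genes called in the same direction in both. NFKBIA was the 1 gene called in opposite directions, beside 2.23% of tested genes.

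**Figure D1:**
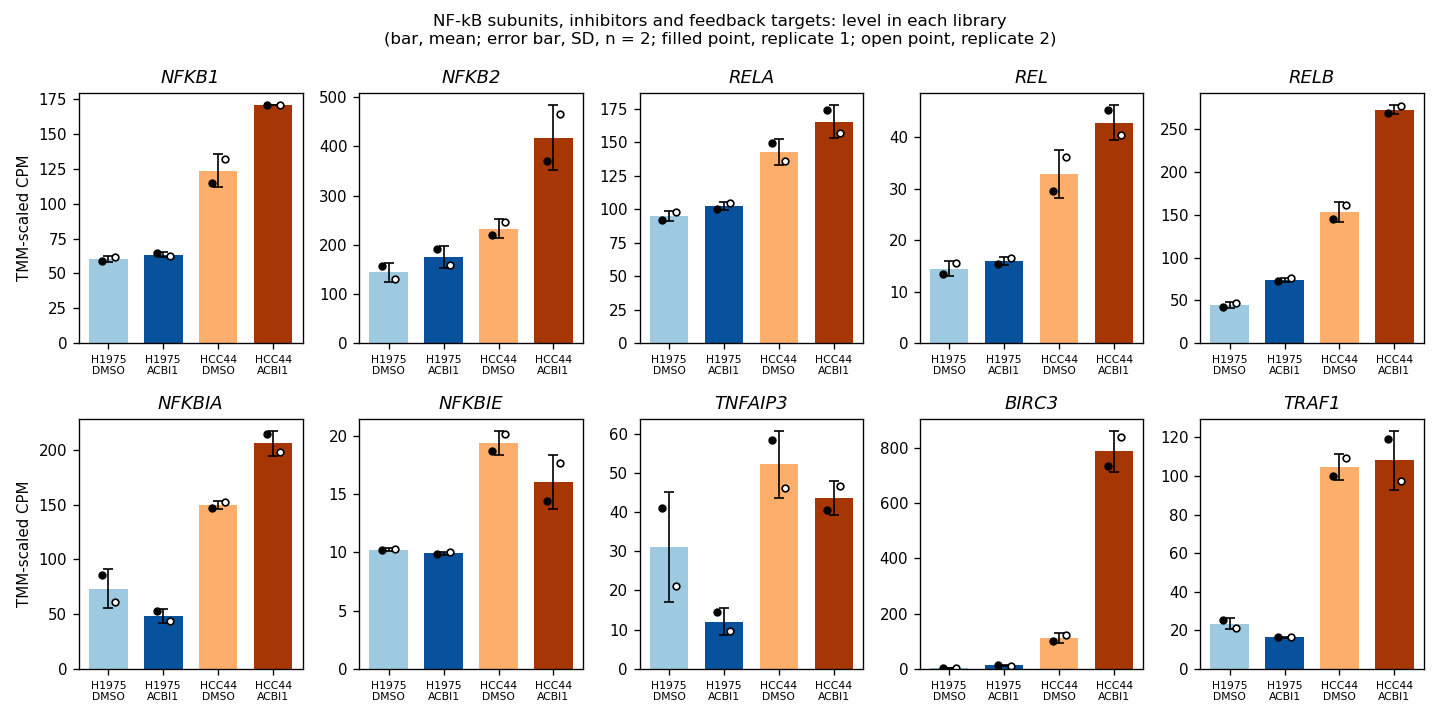
Level of each of the 10 genes as TMM-scaled CPM (y axis, linear, from 0, own scale per gene) in the 4 groups. Bars are means, error bars the SD of 2 libraries, and points the libraries. All 10 bars are higher in HCC44 DMSO than in H1975 DMSO, and the HCC44 ACBI1 bar of BIRC3, from libraries at 736 and 841 CPM, is the tallest in the plot.

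Among the subunits, RELB was the 1 gene called in both lines. RELB, which pairs with p52 in the non-canonical arm, lies at chr19:45001430-45038198 on the plus strand (GRCh38). Its level was 42.3 and 47.1 CPM in the H1975 DMSO libraries and 72.7 and 76.1 CPM with ACBI1. In HCC44 it was 145 and 162 CPM with DMSO and 269 and 277 CPM with ACBI1. The groups did not overlap in either line, and replicates lay close together. The log2 fold changes were 0.73 ± 0.09 (SE, adjusted p 0.000262) in H1975 and 0.83 ± 0.09 (adjusted p 7.41e-05) in HCC44. The difference between the lines was 0.10 ± 0.13, with a 95% interval of -0.19 to 0.38 (adjusted p 0.665), and its sign turned with library totals as the scaling (-0.01) and without H1975 DMSO replicate 2 (-0.03).

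NFKB2 (chr10:102394110-102402529, plus strand) encodes the p100 precursor of p52. In HCC44 its libraries stood at 219 and 246 CPM with DMSO and at 371 and 465 CPM with ACBI1, without overlap, a log2 fold change of 0.84 ± 0.14 (adjusted p 0.000943). In H1975 they stood at 157 and 130.05 CPM with DMSO and 191 and 159.6 CPM with ACBI1. Both ACBI1 libraries of H1975 were above both DMSO libraries, but the nearest pair differed by less than the replicates of either group. The H1975 change was 0.29 ± 0.14 and did not pass (adjusted p 0.141). The HCC44 value lay 0.56 ± 0.19 above that of H1975, with a 95% interval of 0.13 to 0.99 before adjustment and an adjusted p of 0.0714.

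NFKB1 (chr4:102501329-102617302, plus strand) encodes the p105 precursor of p50, the usual partner of RELA. It did not pass in H1975, at 59.0 and 61.9 CPM with DMSO and 64.7 and 62.3 CPM with ACBI1 (log2 fold change 0.07 ± 0.09, adjusted p 0.589). In HCC44 it went from 115 and 132 CPM to 171 CPM in both ACBI1 libraries. That rise of 0.47 ± 0.09 passed the test (adjusted p 0.00238). The difference between the lines was 0.40 ± 0.13 and missed the threshold (adjusted p 0.0542).

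RELA and REL carry the transactivation domains of the canonical arm. RELA (chr11:65653596-65663094, minus strand) stood at 92.4 and 97.7 CPM with DMSO and 100.4 and 105 CPM with ACBI1 in H1975, and at 150.0 and 136 CPM with DMSO and 174 and 157 CPM with ACBI1 in HCC44. The ACBI1 libraries were higher in both lines without overlap, but neither change passed, at 0.11 ± 0.09 (adjusted p 0.399) and 0.21 ± 0.09 (adjusted p 0.0969). RELA passed in both lines with library totals, at 0.31 in H1975 and 0.30 in HCC44. REL (chr2:60881521-60931610, plus strand) was the least abundant subunit. Its libraries were at 13.4 and 15.6 CPM with DMSO and 15.3 and 16.4 CPM with ACBI1 in H1975, where the groups overlapped (0.13 ± 0.14, adjusted p 0.494). In HCC44 they were at 29.6 and 36.1 CPM with DMSO and 45.2 and 40.4 CPM with ACBI1, a log2 fold change of 0.38 ± 0.13 (adjusted p 0.0446). That call was close to the threshold and was lost without HCC44 DMSO replicate 1 (0.24, adjusted p 0.309), without either HCC44 ACBI1 library and in 3 other alternatives. REL shares 43.3% of its exonic bases with other annotated genes on its strand, so its counts are uncertain.

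Of the 2 inhibitors, NFKBIA moved in opposite directions in the 2 lines and NFKBIE passed in neither. NFKBIA (chr14:35401511-35404749, minus strand) encodes IkB-alpha, the classic negative feedback inhibitor of the canonical arm. In H1975 it stood at 85.8 and 60.8 CPM with DMSO and at 52.6 and 43.8 CPM with ACBI1. In HCC44 it stood at 147 and 152 CPM with DMSO and at 214 and 198 CPM with ACBI1. The groups did not overlap in either line, but the 2 H1975 DMSO libraries were farther from each other than the nearest DMSO and ACBI1 libraries. NFKBIA fell by 0.61 ± 0.15 on the log2 scale in H1975 (adjusted p 0.0121) and rose by 0.46 ± 0.15 in HCC44 (adjusted p 0.0346). The difference between the lines was 1.07 ± 0.21 (95% interval 0.60 to 1.53, adjusted p 0.00733), which passed in all 16 alternatives. The calls within a line were less firm. The H1975 call was lost without DMSO replicate 1 (-0.34, adjusted p 0.0809), without ACBI1 replicate 2 (-0.45) and with library totals (-0.40), and the HCC44 call was lost without any 1 of the 4 HCC44 libraries.

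NFKBIE (chr6:44258166-44265788, minus strand), which encodes IkB-epsilon, lay between 9.84 and 10.3 CPM in all 4 H1975 libraries. In HCC44 it was 18.6 and 20.1 CPM with DMSO and 14.4 and 17.6 CPM with ACBI1. The HCC44 libraries did not overlap, but the change of -0.27 ± 0.14 did not pass (adjusted p 0.151). The H1975 value of -0.04 ± 0.14 (adjusted p 0.855) turned positive with upper-quartile factors (0.03) and library totals (0.16).

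Among the targets, BIRC3 had the largest response in both lines. BIRC3 (chr11:102317450-102339403, plus strand) encodes cIAP2, a ubiquitin ligase that acts at TNF receptors and, with its paralogue cIAP1, in the turnover of NIK. Its libraries gave 295 and 245 counts (4.58 and 3.62 CPM) in H1975 DMSO and 1070 and 817 counts (14.2 and 11.6 CPM) in H1975 ACBI1. In HCC44 they gave 6290 and 7913 counts (99.996 and 124 CPM) with DMSO and 46000 and 53451 counts (736 and 841 CPM) with ACBI1. The 4 groups were wholly separate, and H1975 with ACBI1 stayed below HCC44 with DMSO. The log2 fold change was 1.65 ± 0.16 in H1975 (adjusted p 7.58e-05) and 2.82 ± 0.15 in HCC44 (adjusted p 1.23e-06), where BIRC3 had rank 41 of the tested genes by p. The rise in HCC44 exceeded that in H1975 by 1.16 ± 0.21 (95% interval 0.69 to 1.63, adjusted p 0.00493). BIRC3 was called in both lines in all 17 alternatives and in the difference in all 16.

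TNFAIP3 (chr6:137867188-137883312, plus strand) encodes A20, a ubiquitin-editing enzyme that shuts down signalling to IKK. In H1975 it was at 40.9 and 21.2 CPM with DMSO and at 14.4 and 9.62 CPM with ACBI1, a log2 fold change of -1.37 ± 0.33 (adjusted p 0.0174). In HCC44 the groups overlapped, at 58.2 and 46.1 CPM with DMSO and 40.6 and 46.7 CPM with ACBI1 (-0.26 ± 0.31, adjusted p 0.581). TNFAIP3 had the largest SE of the 10 genes. The H1975 fall was smaller without DMSO replicate 1 (-0.82, still called) and did not pass without ACBI1 replicate 2 (-1.08, adjusted p 0.136) or with no filter on low counts (adjusted p 0.0723). The HCC44 value lay 1.11 ± 0.45 above that of H1975, which did not pass (adjusted p 0.137).

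TRAF1 (chr9:120902393-120929173, minus strand) encodes an adaptor that joins TRAF2 and the cIAP ligases. In H1975 it was at 25.4 and 21.3 CPM with DMSO and at 16.5 and 16.3 CPM with ACBI1, a log2 fold change of -0.51 ± 0.12 (adjusted p 0.00996). In HCC44 the groups overlapped, at 99.8 and 109 CPM with DMSO and 119 and 97.2 CPM with ACBI1 (0.05 ± 0.12, adjusted p 0.806). The H1975 call was lost without DMSO replicate 1 (-0.38), without ACBI1 replicate 2 (-0.48) and with library totals (-0.31). The HCC44 value exceeded that of H1975 by 0.56 ± 0.17 (adjusted p 0.0452), a call lost in 10 of 16 alternatives.

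**Figure D2:**
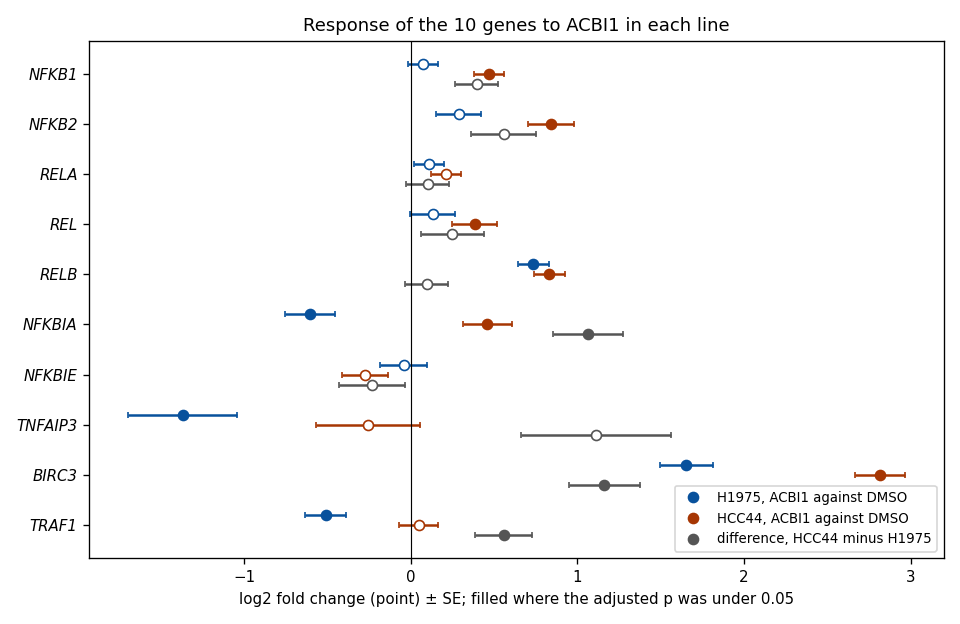
Log2 fold change with ACBI1 (x axis; point, estimate; bar, SE) of the 10 genes in H1975, in HCC44 and as the difference HCC44 minus H1975, with filled points where the adjusted p was under 0.05. BIRC3 lies at 1.65 and 2.82, RELB at 0.73 and 0.83, and NFKBIA lies on either side of 0; the small differences of RELA and RELB and the H1975 value of NFKBIE changed sign with library totals.

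Comparing the responses directly, the HCC44 value was the higher for BIRC3, NFKBIA and TRAF1. These 3 of 10 genes compare with 18.6% of tested genes called for a difference in either direction, 10.2% with the higher value in HCC44 and 8.40% with the lower. For 6 of the other 7 the HCC44 value was also the higher, though not past the test, and NFKBIE was the exception (-0.23 ± 0.20). The median difference of the 10 was 0.48, against 0.04 over all tested genes. The comparisons share their fit and the difference is built from both, so these are not separate lines of evidence.

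The lines already differed before treatment. With DMSO, 9 of the 10 genes were higher in HCC44, beside 67.9% of tested genes called in either direction, 31.6% called as higher in HCC44 and 36.4% as lower. BIRC3 differed most, 27.3-fold (log2 4.77 ± 0.17, adjusted p 3.82e-09), followed by TRAF1 at 4.49-fold and RELB at 3.43-fold. REL (2.26-fold), NFKB1 (2.04-fold), NFKBIA (2.04-fold), NFKBIE (1.90-fold), NFKB2 (1.62-fold) and RELA (1.505-fold) followed. TNFAIP3 (0.75 ± 0.32) did not pass (adjusted p 0.0698), with 40.9 and 21.2 CPM in H1975 and 58.2 and 46.1 CPM in HCC44, and it passed without H1975 DMSO replicate 1 (1.29) and in 3 other alternatives. These values compare cultures of 1 line with cultures of another.

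To compare levels between genes, CPM was divided by the length of each gene's merged exons in kb. On that scale BIRC3 had the lowest level of the 10 in H1975 DMSO, at 0.546 ± 0.090 CPM per kb (SD, n = 2), and the highest in HCC44 ACBI1, at 104.9 ± 9.86 CPM per kb. In HCC44 ACBI1 its neighbours in the order were NFKB2 at 93.2 ± 15, RELB at 90.0 ± 1.8 and NFKBIA at 86.9 ± 4.8 CPM per kb, the libraries of BIRC3 overlapped with those of NFKB2 alone, and those of the other 3 overlapped one another. In H1975 DMSO the order was led by NFKB2 at 32.0 ± 4.3 and NFKBIA at 30.9 ± 7.5 CPM per kb, which did not differ beyond their spread, followed by RELA at 17.4 ± 0.69 and RELB at 14.7 ± 1.1 CPM per kb. With ACBI1 RELB moved from the fourth to the second place in H1975, at 24.5 ± 0.79 CPM per kb. REL had the lowest level per kb in the other 3 groups, between 1.21 and 3.25 CPM per kb.

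RELB made up a larger share of the subunit transcripts in the ACBI1 libraries of both lines. It formed 18.3 and 21.1% of the summed subunit CPM per kb in the H1975 DMSO libraries and 24.8 and 27.5% with ACBI1. In HCC44 it formed 33.0 and 33.9% with DMSO and 37.9 and 35.9% with ACBI1. RELA went the other way, at 22.1 and 24.3% with DMSO and 19.1 and 21.1% with ACBI1 in H1975, and 18.9 and 15.9% with DMSO and 13.6 and 11.3% with ACBI1 in HCC44. For both genes the groups did not overlap in either line. The ratio of RELB to RELA was 0.846 ± 0.031 and 1.306 ± 0.0030 (SD, n = 2) without and with ACBI1 in H1975, and 1.94 ± 0.28 and 2.98 ± 0.28 in HCC44. The ratio of NFKBIA to RELA, inhibitor against the subunit it retains, was 1.79 ± 0.50 and 1.08 ± 0.17 in H1975 and 2.42 ± 0.22 and 2.87 ± 0.055 in HCC44. A ratio shows unequal change of 2 transcripts and says nothing on protein, and no test was made of shares or ratios.

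**Figure D3:**
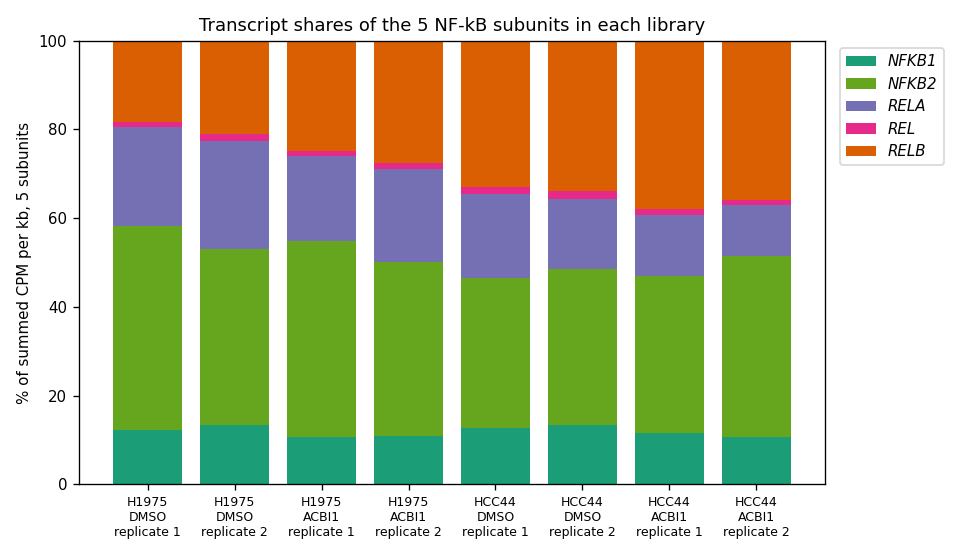
Share of each of the 5 NF-kB subunits in their summed CPM per kb (y axis, percent) in each of the 8 libraries (x axis). The RELB segment at the top is 18.3 to 21.1% in H1975 DMSO, 24.8 to 27.5% in H1975 ACBI1, 33.0 to 33.9% in HCC44 DMSO and 35.9 to 37.9% in HCC44 ACBI1.

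Around the 10 genes, 66 further pathway genes were described by list. In H1975, 5 of the 66 rose and 25 fell, against 14.6% and 16.7% of all tested genes, with a median log2 fold change of -0.16. TNFSF11 and VCAM1, which had no counts in H1975, are among the 66. The 25 became 15 or 16 without DMSO replicate 1 or either ACBI1 library of H1975, and with library totals 11 rose and 18 fell. In HCC44, 8 rose and 17 fell, against 17.5% and 17.4%, with a median of -0.15. The 8 became 3 to 5 without either DMSO library or ACBI1 replicate 1 of HCC44. The medians over all tested genes were -0.01 and 0.01. In the difference between the lines 12 were called with the higher value in HCC44 and 5 with the lower, against 10.2% and 8.40% of tested genes. That balance turned to 8 and 9 with library totals and to 9 and 10 without HCC44 ACBI1 replicate 1, and was 11 and 9 with DESeq2. The 17 became 8 to 11 without H1975 DMSO replicate 2, either H1975 ACBI1 library or either HCC44 DMSO library. With library totals the median of all tested genes went to 0.18 in H1975, from -0.01, and to 0.09 in HCC44, from 0.01, so the directions given are relative to the TMM scale.

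The other IkB family proteins are BCL3, NFKBIB, NFKBID and NFKBIZ. Of these 4 genes, 1 rose and 2 fell in H1975, beside 14.6% and 16.7% of tested genes. In HCC44, 2 rose and none fell, beside 17.5% and 17.4%. The count in HCC44 became 0 without its DMSO replicate 1, and 1 without its DMSO replicate 2, its ACBI1 replicate 2 or either H1975 ACBI1 library. NFKBIB, a further cytoplasmic inhibitor, rose by 0.58 ± 0.08 (adjusted p 0.000509) in H1975 and, in HCC44, by 0.26 ± 0.08 (adjusted p 0.0298, lost in 7 of 17 alternatives). NFKBIZ, a nuclear co-regulator, stood at 97.0 and 56.1 CPM with DMSO and 26.6 and 16.8 CPM with ACBI1 in H1975 (-1.82 ± 0.46, adjusted p 0.0225). That call was lost when any 1 of the 4 H1975 libraries was left out, and in HCC44 the value was -0.59 (adjusted p 0.349). With replicate number as a block in the fit, NFKBIZ passed in HCC44 (adjusted p 5.96e-05). NFKBID, another nuclear member, was at 3.97 and 4.25 CPM with DMSO and 11.8 and 10.8 CPM with ACBI1 in HCC44, a rise of 1.46 ± 0.33 (adjusted p 0.00663). It exceeded the H1975 value by 1.61 ± 0.47 (adjusted p 0.0386), a call lost in 6 of 16 alternatives.

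Of 18 kinases and adaptors, 1 rose and 5 fell in H1975, beside 14.6% and 16.7% of tested genes. In HCC44, 4 rose and 3 fell, beside 17.5% and 17.4%. The 6 of 18 called in H1975 and 7 of 18 in HCC44 were close to the shares of all tested genes, 31.3% and 34.9%. In H1975 the split turned to 5 and 2 with library totals and was 3 and 3 with upper-quartile factors, and the 6 became 3 without ACBI1 replicate 2. The 4 of HCC44 became 2 without its DMSO replicate 2. MAP3K14, which encodes the non-canonical kinase NIK, had the largest rise of this list in HCC44. It went from 51.9 and 56.7 CPM with DMSO to 149 and 193 CPM with ACBI1 there (1.66 ± 0.13, adjusted p 8.50e-06), and stood at 21.2 and 20.8 CPM with DMSO and 22.2 and 25.6 CPM with ACBI1 in H1975 (0.19 ± 0.13, adjusted p 0.297). The gap between the responses, 1.47 ± 0.18 (adjusted p 0.000569), passed in all 16 alternatives. An antisense gene shares 12.3% of the exonic bases of MAP3K14, so its counts are uncertain in that respect. IRAK4, a kinase downstream of Toll-like and IL-1 receptors, rose by 0.82 ± 0.13 in H1975 (adjusted p 0.000812), and the difference was of the opposite sign to that of MAP3K14, at -0.97 ± 0.18 (adjusted p 0.00468). MYD88, an adaptor that acts upstream of IRAK4, fell in both lines, by 1.00 ± 0.11 (adjusted p 0.000122) and 0.85 ± 0.11 (adjusted p 0.000241). IKBKG, the regulatory subunit of IKK, fell by 0.71 ± 0.17 (adjusted p 0.0115) in H1975 and, in HCC44, by 0.88 ± 0.17 (adjusted p 0.00295). IKBKG has a near-identical pseudogene copy, so its counts are uncertain, and its H1975 call was lost without DMSO replicate 1 (-0.58) and without ACBI1 replicate 2 (-0.54).

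Of 7 ubiquitin editors and linear ubiquitin enzymes none rose and 3 fell in H1975, beside 14.6% and 16.7% of tested genes. With library totals 1 rose and 1 fell there. In HCC44 none rose and 2 fell, beside 17.5% and 17.4%. BIRC2, which encodes the ubiquitin ligase cIAP1 and rose in HCC44, was counted with the kinases and adaptors. The 3 became 1 without H1975 DMSO replicate 1 or either H1975 ACBI1 library. CYLD, a deubiquitinase that restrains the pathway, fell by 0.73 ± 0.12 (adjusted p 0.00146) in H1975 and by 0.66 ± 0.12 (adjusted p 0.00184) in HCC44. RBCK1, which encodes HOIL-1 of the linear ubiquitin ligase, fell by 0.31 ± 0.09 in H1975 (adjusted p 0.0223, lost in 5 of 17 alternatives) and by 0.99 ± 0.09 in HCC44 (adjusted p 2.49e-05). Its fall in HCC44 was the larger by a difference of -0.68 ± 0.13 (adjusted p 0.0051).

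Of 11 receptors, 2 rose and 6 fell in H1975, beside 14.6% and 16.7% of tested genes. In HCC44 none rose and 5 fell, beside 17.5% and 17.4%. With library totals 3 rose and 5 fell in H1975. The 5 of HCC44 became 3 without either HCC44 DMSO library and 2 without HCC44 ACBI1 replicate 2. TNFRSF1B, the second TNF receptor, rose by 1.12 ± 0.25 in H1975 (adjusted p 0.00595), while TLR3, a sensor of double-stranded RNA, fell by 1.62 ± 0.33 (adjusted p 0.00414). TLR3 was also called as fallen in HCC44, at -1.59 ± 0.41 (adjusted p 0.0110), from a mean of 0.435 CPM with DMSO. TLR2, a sensor of bacterial lipoproteins, had the largest called fall of those reaching 1 CPM in HCC44 (-1.82 ± 0.28, adjusted p 0.000592). All 3 were at low levels, under 5 CPM in each library of the lines named.

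Of 8 ligands, 1 rose and 2 fell in H1975, beside 14.6% and 16.7% of tested genes. In HCC44 none rose and 2 fell, beside 17.5% and 17.4%. TNFSF11 had no counts in H1975 and passed the filter through HCC44. TNF, LTA, LTB and TNFSF13B were near the floor in H1975, with group means of at most 0.268 CPM. IL1B, the cytokine interleukin-1 beta, gave 18166 counts in the 2 HCC44 DMSO libraries together and 49 with ACBI1, a ratio of 369 (exact 95% interval 279 to 499, covering counting error only). In H1975 it gave 180 and 2 counts, a ratio of 99.5 (27.1 to 828). The fit, which takes in the spread between libraries, gave log2 fold changes of -8.52 (95% interval -9.55 to -7.49) in HCC44 and -6.46 (-8.55 to -4.36) in H1975. TNF, the prototype inducer of the pathway, stood at 23.4 and 18.0 CPM with DMSO and 17.2 and 13.1 CPM with ACBI1 in HCC44 (-0.45 ± 0.21, adjusted p 0.131). In H1975 it had 20 and 24 counts in all, and a change was not detectable at that depth. TNFSF12, which encodes the ligand TWEAK, rose by 1.04 ± 0.23 in H1975 (adjusted p 0.00676) and shares 33.2% of its exonic bases with neighbouring gene models, so its counts are uncertain.

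Of 18 other NF-kB target genes, none rose and 7 fell in H1975 (median -0.42), and 2 rose and 5 fell in HCC44 (median -0.36). VCAM1 had no counts in H1975 and entered that line's count and median with a log2 fold change of 0. The chemokine gene CXCL8 fell by 2.19 ± 0.38 in H1975 (adjusted p 0.00485), a call lost when any 1 of the 4 H1975 libraries was left out, and stood at -0.53 ± 0.35 in HCC44 (adjusted p 0.300). Its HCC44 value passed with the replicate block (adjusted p 0.00191). CXCL1, another neutrophil chemokine, rose by 1.14 ± 0.33 in HCC44 (adjusted p 0.0336), a call lost in 7 of 17 alternatives. CSF2, which encodes the cytokine GM-CSF, fell by 2.87 ± 0.44 in HCC44 (adjusted p 0.00101) and was called there in all 17. It was also called as fallen in H1975, at -1.74 ± 0.52 (adjusted p 0.0316), from a mean of 1.19 CPM with DMSO. IL6, which shares 20.7% of its exonic bases with antisense genes and is uncertain for that reason, did not pass in either line, at -0.98 ± 0.41 (adjusted p 0.117) and -0.65 ± 0.41 (adjusted p 0.273). With replicate number as a block in the fit, IL6 passed in both lines (adjusted p 1.30e-05 and 0.000126). The counts of this list stand beside 14.6% of tested genes called as risen and 16.7% as fallen in H1975, and 17.5% and 17.4% in HCC44. The 7 falls in H1975 became 4 without DMSO replicate 1 or without ACBI1 replicate 2. The 2 rises in HCC44 became 0 without its DMSO replicate 2 or its ACBI1 replicate 1, and 1 without its DMSO replicate 1 or either H1975 ACBI1 library.

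**Figure D4:**
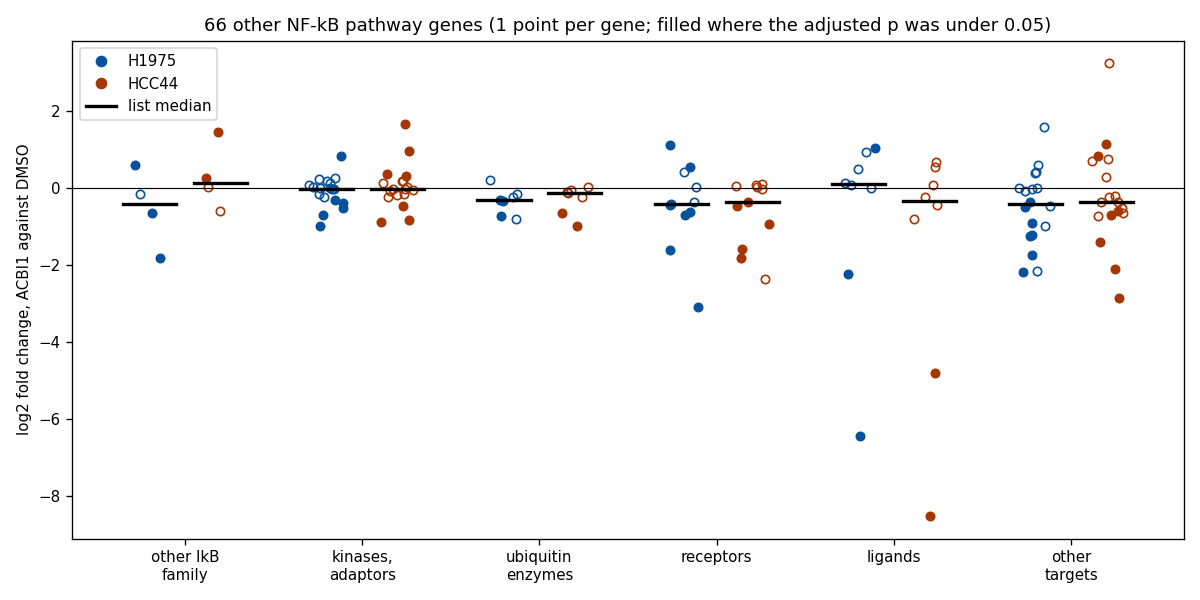
Log2 fold change with ACBI1 (y axis) of the 66 other pathway genes, 1 point per gene, by list (x axis) in H1975 and HCC44, filled where the adjusted p was under 0.05, with list medians as bars. The highest filled point of the kinases and adaptors in HCC44 is MAP3K14 (1.66) and the lowest point in the plot is IL1B in HCC44 (-8.52).

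Of 11649 genes outside the 10 that averaged 5 CPM or more, those whose log2 CPM followed BIRC3 most closely over the 8 libraries were BMAL2 (Pearson r 0.9997), TMEM44 (0.9971) and RUFY3 (0.9953). The 8 points form 4 groups that differ mainly by line, and the genes share their libraries, so the coefficients are a description. The responses of the 3 genes were much smaller than that of BIRC3, with log2 fold changes of 0.43, 0.28 and 0.33 in H1975 and 0.83, 0.65 and 0.45 in HCC44.

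BIRC3 lies beside BIRC2, which encodes its paralogue cIAP1, and the genes within 500 kb were described for that reason, after their values were seen. Of 13 other protein-coding genes there, 8 were tested, of which 2 rose and 2 fell in H1975, and 2 rose and 1 fell in HCC44. Over all tested genes 31.3% were called in H1975 (14.6% up, 16.7% down) and 34.9% in HCC44 (17.5% up, 17.4% down). The falls were YAP1 and MMP10 in H1975 and MMP1 in HCC44. MMP10 and MMP1 were at low levels, with DMSO means of 0.304 CPM in H1975 and 2.67 CPM in HCC44, respectively. BIRC2, starting 29.8 kb downstream, stood at 40.6 and 44.3 CPM with DMSO and 39.6 and 44.4 CPM with ACBI1 in H1975. In HCC44 it stood at 135 and 150.4 CPM with DMSO and 291 and 261 CPM with ACBI1. BIRC2 thus rose in HCC44 (0.95 ± 0.10, adjusted p 5.96e-05) and overlapped in H1975, where its value of -0.01 ± 0.10 (adjusted p 0.936) turned positive in 7 of 17 alternatives. The difference between the lines was 0.97 ± 0.14 (adjusted p 0.00151). YAP1, which starts at -207 kb from the BIRC3 start, was at -0.33 ± 0.09 in H1975 (adjusted p 0.0172, lost in 4 of 17 alternatives) and 0.22 ± 0.09 in HCC44 (adjusted p 0.0798). TMEM123, 152.9 kb downstream, passed in neither line (adjusted p 0.847 and 0.126). CEP126, which starts at -402.4 kb, rose in both, by 0.94 ± 0.17 (adjusted p 0.00235) and 1.52 ± 0.17 (adjusted p 8.42e-05).

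**Figure D5:**
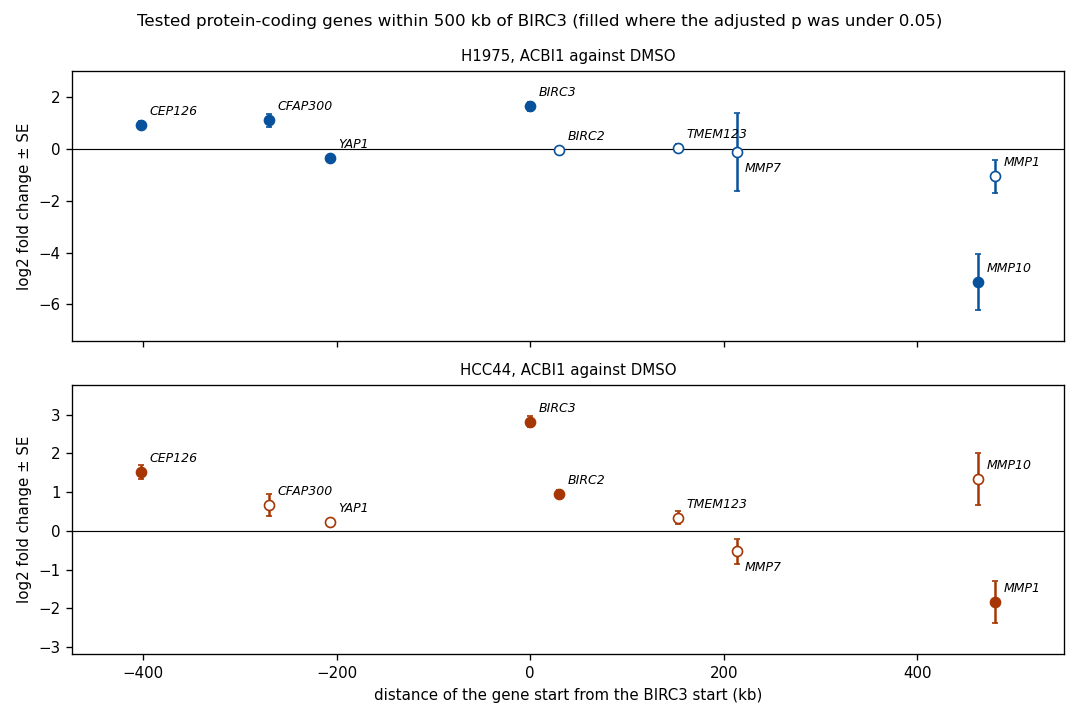
Log2 fold change with ACBI1 (y axis; bars, SE) of BIRC3 and the 8 tested protein-coding genes within 500 kb, against the distance of each gene's start from that of BIRC3 in kb (x axis), in H1975 (top) and HCC44 (bottom), filled where the adjusted p was under 0.05. BIRC3 at 0 kb is the highest point in both panels, and BIRC2 at 29.8 kb is at -0.01 in H1975, positive in 7 of 17 alternatives, and 0.95 in HCC44.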

How the data were processed

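RNA was measured in 8 libraries, 2 for each line and treatment. The deposited values are whole-number read counts per gene, 1 table per library, made by the authors with TopHat2 2.1.1 and HTSeq 0.11.0 on hg38, per the submitters' processing notes. The annotation and the strand setting are not given in the sources used here, so counts of overlapping and antisense genes are uncertain. Summary rows (5 per table, 14.3 to 15.8% of its reads) were left out.

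Genes were kept by filterByExpr (minimum count 10) and libraries scaled with TMM factors in edgeR 4.0.16 (R 4.3.3). All 8 libraries entered 1 quasi-likelihood fit with group means (robust dispersion, 4 residual degrees of freedom). A gene was called at an adjusted p under 0.05 (two-sided, Benjamini-Hochberg, over 21307 tested genes). A standard error is the log2 fold change divided by the square root of F, and intervals are 95%. CPM is TMM-scaled. The procedure was also run on simulated counts in which few genes changed, in 1 line at a time. Many more genes were called in these data, so that run does not vouch for the calls.

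The 10 genes and the lists were chosen with earlier results of these data known. From each list the largest called rise and fall per line among genes reaching 1 CPM as a group mean were named, with TNF, IL1B, CXCL8 and IL6, and the genes most like BIRC3 were those of highest Pearson r of log2 CPM (prior count 0.5). The neighbours of BIRC3 were singled out after their values were seen. Positions and exon lengths are from GENCODE 29 (GRCh38), promoters from RefSeq. Chi-square per degree of freedom between replicates was 24.0 to 48.4, above sampling noise, so each library was counted once. Alternatives were DESeq2 1.42.0, RLE and upper-quartile factors, library totals, 2 other filters, non-robust dispersion, each line alone, a replicate block and each library left out. Figures were drawn with matplotlib 3.10.9.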

Additional observations from a re-analysis of the deposited data

Results flagged for a closer look

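The difference between the responses of H1975 and HCC44 to ACBI1 was itself tested (edgeR's quasi-likelihood test, Benjamini-Hochberg adjusted, HCC44 minus H1975, 2 libraries per group). It passed for 3967 of 21307 tested genes (18.6%) and for 17 of the 66 other pathway genes. Among the genes whose log2 fold changes are stated in the text, 10 passed. Among the 10 subunit, inhibitor and feedback genes these were BIRC3 (1.16, adjusted p 0.00493, a rise in both lines), NFKBIA (1.07, adjusted p 0.00733, a fall in H1975 and a rise in HCC44) and TRAF1 (0.56, adjusted p 0.0452, a fall in H1975 alone past the test). Among the other named pathway genes they were NFKBID (1.61, adjusted p 0.0386), MAP3K14 (1.47, adjusted p 0.000569), IRAK4 (-0.97, adjusted p 0.00468), RBCK1 (-0.68, adjusted p 0.0051) and BIRC2 (0.97, adjusted p 0.00151), the last of which is also the neighbour of BIRC3. Outside the pathway lists they were YAP1 (0.54, adjusted p 0.0131), near BIRC3, and BMAL2 (0.40, adjusted p 0.0418), which was picked for following BIRC3 over these libraries, so that its value is a description. The values of BIRC3, NFKBIA, MAP3K14, IRAK4, RBCK1 and BIRC2 passed in all 16 alternatives. TRAF1 did not pass in 10 of them, NFKBID in 6 and YAP1 in 4.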

How the results depend on the processing

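RELB and BIRC3 were called in both lines, and NFKB1 and NFKB2 in HCC44, in all 17 alternatives. In H1975 the count of 5 fell to 3 without DMSO replicate 1 and to 2 without ACBI1 replicate 2, a range of 2 to 5 over the libraries left out, and the genes lost were NFKBIA, TRAF1 and, in the second case, TNFAIP3. With library totals NFKB1, NFKB2 and RELA passed in H1975 and NFKBIA and TRAF1 did not. In HCC44 the range was 4 to 6 against 6. For the difference it was 2 to 5 against 3, with 5 without H1975 DMSO replicate 2, and for the DMSO groups 9 to 10 against 9. A group left with 1 library was assumed to vary like the others. Deviations from the group mean were correlated between DMSO replicate 1 and ACBI1 replicate 1 over the 21307 tested genes. The correlation was 0.297 in H1975 and 0.0758 in HCC44. With 2 libraries per group, replicate 2 mirrors replicate 1, so each line gives 1 such value, which does not establish a pairing. With the replicate block 6 members were called for the difference, adding NFKB1, NFKB2 and TNFAIP3, 6 in H1975, 7 in HCC44 and 10 for the DMSO groups. Of the 66 other pathway genes, 9 rose and 29 fell in H1975 with the block, 10 and 26 in HCC44, and 16 were higher and 12 lower in the difference. Of the 18 other targets it called 15 in HCC44, 4 up and 11 down, and of the 7 ubiquitin genes 5 in H1975. IL6 passed under it in both lines (-1.01, adjusted p 1.30e-05, and -0.65, adjusted p 0.000126), as did NFKBIZ (-0.62, adjusted p 5.96e-05) and CXCL8 (-0.59, adjusted p 0.00191) in HCC44.

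Values near 0 changed sign. NFKBIE in H1975 was 0.031 with upper-quartile factors, 0.16 with library totals and -0.056 to 0.018 with a library left out. With library totals the differences of RELA and RELB were -0.0097 and -0.015, and RELB ranged from -0.034 to 0.18 with a library left out. TRAF1 in HCC44 ranged from -0.10 to 0.19 with a library left out. BIRC2 in H1975 was 0.018 with RLE factors and with DESeq2, 0.058 with upper-quartile factors, 0.19 with library totals, 0.0060 with the 1 CPM filter and -0.080 to 0.099 with a library left out. TMEM123 in H1975 ranged from -0.093 to 0.25. Their causes were not tested. With library totals 72.3% of the calls over all genes in H1975 were rises against 46.6%, 60.5% against 50.01% in HCC44, and 40.5% against 54.9% in the difference. Over all genes 6663, 7438 and 3967 were called, 3690 to 7161, 4945 to 7342 and 2341 to 4134 with a library left out, and 9103, 9533 and 6358 with the replicate block. Low counts limit TNF and IL1B in H1975.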

Other observations

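Replicate 1 was higher than replicate 2 in all 4 groups for 7 of the 18 other NF-kB target genes (38.9%), namely CXCL1, CXCL2, CXCL3, CXCL8, IL6, ZC3H12A and SDC4, and for NFKBIZ among the 4 other IkB family genes. Over all tested genes this held for 1805 of 21307 (8.47%), and for none of the 10 genes of the report. The pattern was picked out after the values were seen. The labels do not say what libraries of the same number share, and the cause of the pattern was not tested.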
